A study of Mus musculus with 8 samples.

Results

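The comparison described here is that of mice given bovine colostrum exosomes before dextran sodium sulfate (DSS) with mice given DSS alone. It was made up of the 4 libraries labelled ExDSS 1, ExDSS 2, PC 1 and PC 2, of 8 in the series, and it covered all 14567 genes that passed the count filter. All mice were wild-type C57BL/6, and their age and sex are not given in the sources used here. Mice of the group labelled ExDSS were gavaged daily for 3 weeks with 1 mg of exosomes, which are small membrane vesicles that cells release, here into milk, and then received 3% DSS in drinking water for 6 days. Mice of the group labelled PC received buffer in place of exosomes and the same DSS. The other 4 libraries, labelled NC (buffer, no DSS) and Ex (exosomes, no DSS), entered the fit to estimate the spread and served the interaction test. RNA came from intestinal tissue of a region that the sources used here do not name. Each group held 2 libraries, and the labels do not tie them to separate mice. The p-values below therefore measure only the spread between libraries, which may be technical.

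DSS in drinking water damages the lining of the gut from the lumen, so that bacteria reach the mucosa. Neutrophils and monocytes then enter the tissue and bring calprotectin, interleukin 1 and matrix-degrading proteases, while interferon and acute phase genes are induced in the tissue itself. Colonocytes, which absorb salt and water and burn butyrate, and the dividing cells of the crypts are lost in such injury and replaced during repair. Exosomes carry proteins, lipids and RNA between cells, and the comparison asks whether a course of them before DSS alters the tissue's response.

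The labels were first checked against the treatment and the tissue. S100a8 and S100a9, the subunits of calprotectin, were at 0.291 and 0.628 CPM and at 0.509 and 0.628 CPM in PC 1 and PC 2, the libraries labelled as DSS alone. In NC 1 and NC 2, labelled as free of DSS, they were at 824 and 791 CPM and at 1142 and 1126 CPM. CPM here are counts scaled to a common depth with the library's TMM factor. The calprotectin values go against the PC and NC labels as a record of DSS. PC and ExDSS below therefore name the libraries labelled so, and each direction is one between labels. Of the epithelial markers, Epcam was between 565 and 695 CPM and Krt8 between 823 and 1458 CPM in the 4 libraries. Cdx2 was uneven, at 28.3 and 17.3 CPM in PC 1 and PC 2 and at 53.8 and 6.53 CPM in ExDSS 1 and ExDSS 2. The epithelial lectin gene Lgals4 had no count in ExDSS 1 or ExDSS 2 and was at 18.5 and 24.1 CPM in PC 1 and PC 2.

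Library quality was uneven between the groups. Total counts ranged from 9652586 to 10812469 over the 4 libraries, yet PC 1 and PC 2 had a count in 16787 and 16790 genes, and ExDSS 1 and ExDSS 2 in 9825 and 11874. Across 16336 genes (not replicates of each other), Pearson's r of log2 CPM was 0.984 for PC 1 with PC 2 and 0.708 for ExDSS 1 with ExDSS 2. The ribosomal RNA precursor Rn45s held 7.35% and 11.1% of the counts of PC 1 and PC 2 (exact 95% intervals 7.34 to 7.37% and 11.1 to 11.1%), and 0.874% and 0.665% of those of ExDSS 1 and ExDSS 2 (0.868 to 0.880% and 0.660 to 0.670%). The 6 acinar markers Amy2a5, Cela1, Ctrb1, Prss2, Pnlip and Cpa1 held 14.7% of ExDSS 1 (14.7 to 14.8%) and at most 0.0538% of the other 3 libraries. These intervals cover counting error only. No pair of libraries agreed within sampling noise, with a chi-square per gene of at least 22.03. That smallest value was of PC 2 with Ex 1, labelled as free of DSS, and PC 1 with PC 2 gave 31.56. Pearson's r with Ex 1 was 0.981 for PC 2 and 0.970 for PC 1.

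Among genes whose groups did not overlap, those with the smallest p and higher in ExDSS belonged to neutrophils and acute inflammation, and those with the smallest p and lower in ExDSS were genes of varied function that were at or near 0 there. Over pancreatic acinar genes the median log2 fold change was larger, 11.83 against 11.05 for S100a9, but it was -2.94 without ExDSS 1. No gene passed the test. By edgeR's quasi-likelihood test and the Benjamini-Hochberg adjustment, 0 of 14567 genes were called (0%), with a smallest adjusted p of 0.177. At an unadjusted p under 0.05, 414 genes were higher in ExDSS (2.84%) and 2349 were lower (16.1%). DESeq2 called 1526 genes, 374 higher and 1152 lower, and limma-voom called 1160, 94 higher and 1066 lower. Both ExDSS libraries lay above both PC libraries in 2758 genes (18.9%) and below both in 6614 (45.4%), and counts of gene list members below stand against these shares. Over all genes tested the median log2 fold change stood at -0.51. It was -0.36 with RLE factors, -0.91 with total counts alone, -1.39 with limma-voom, -0.66 without ExDSS 1 and -2.11 without ExDSS 2. Each list median below is to be read against the median of all genes in the same fit.

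Both ExDSS libraries had under 13000 genes detected and the PC libraries far more, so this difference and the treatment cannot be told apart within the 4 libraries. A term for libraries with under 13000 genes detected, which NC 2 and Ex 2 make possible, moved that median over all genes from -0.51 to 0.70. It left 0 genes called by edgeR, with 778 at an unadjusted p under 0.05. The size of the term comes only from NC 2 against NC 1 and Ex 2 against Ex 1. Ex 2 had 1163147 counts, of which Rn45s held 53.5%, and the acinar markers held 7.02% of NC 2. The term may therefore not describe the ExDSS libraries. Leaving out Ex 1 gave 5 genes called by edgeR and leaving out Ex 2 gave 6, all of them higher in ExDSS.

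The 12 genes with the smallest p among those higher in ExDSS were S100a9, S100a8, Serpina3f, Wfdc21, Hp, Il1b, Cxcl10, Saa3, Rprl3, Chil3, Hdc and Lcn2. All but Rprl3, a small noncoding RNA gene, are known from inflammation. By the rule that chose these genes, both ExDSS libraries exceeded both PC libraries in each. In 12 of 12 NC 1 and NC 2 did so too, which the rule did not require. Motifs of inflammatory transcription factors or the letters TATAAA were matched in promoters of several of these genes. Those of Chil3, Il1b and Serpina3f held matches but are not shown. Promoters of 5 others with matches are shown. Each is the 250 bases before the RefSeq start site in GRCm38.p6, 5′ to 3′ on the gene's strand, with motif matches in capitals.

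S100a8, + strand, chr3:90668821-90669070: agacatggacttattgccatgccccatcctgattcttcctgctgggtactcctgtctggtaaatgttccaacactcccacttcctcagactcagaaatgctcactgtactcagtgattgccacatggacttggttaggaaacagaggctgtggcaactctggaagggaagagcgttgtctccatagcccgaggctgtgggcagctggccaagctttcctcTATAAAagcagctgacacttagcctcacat

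S100a9, - strand, chr3:90695722-90695971: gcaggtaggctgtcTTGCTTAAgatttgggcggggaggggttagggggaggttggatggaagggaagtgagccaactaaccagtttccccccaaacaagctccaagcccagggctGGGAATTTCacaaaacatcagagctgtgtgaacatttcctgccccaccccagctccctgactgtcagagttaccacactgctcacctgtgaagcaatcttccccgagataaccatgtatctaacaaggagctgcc

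Saa3, - strand, chr7:46715677-46715926: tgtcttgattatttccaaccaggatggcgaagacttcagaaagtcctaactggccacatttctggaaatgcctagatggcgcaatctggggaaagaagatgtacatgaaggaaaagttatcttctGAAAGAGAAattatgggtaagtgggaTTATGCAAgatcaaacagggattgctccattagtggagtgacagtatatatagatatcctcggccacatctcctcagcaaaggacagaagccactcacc

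Cxcl10, - strand, chr5:92348890-92349139: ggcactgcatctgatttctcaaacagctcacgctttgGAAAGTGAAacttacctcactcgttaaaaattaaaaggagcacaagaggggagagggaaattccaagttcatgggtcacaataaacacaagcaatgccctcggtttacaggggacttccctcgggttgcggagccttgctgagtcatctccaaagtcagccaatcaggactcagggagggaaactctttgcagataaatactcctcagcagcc

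Lcn2, - strand, chr2:32387740-32387989: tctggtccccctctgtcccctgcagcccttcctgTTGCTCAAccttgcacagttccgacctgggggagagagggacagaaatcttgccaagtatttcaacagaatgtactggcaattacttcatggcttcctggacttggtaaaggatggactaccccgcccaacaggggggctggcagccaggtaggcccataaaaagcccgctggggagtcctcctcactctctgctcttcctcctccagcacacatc

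Motifs were searched on both strands as TTGCNNAA, a core of the C/EBP site, GAAANNGAA, a core of the interferon-stimulated response element, GGGNNTTTC, a core of the NF-kB site, and TATAAA. These letters were chosen after the genes were known. The interferon and NF-kB cores were shortened by 1 base after a first search that had matched fewer windows. The shares below were shaped by these choices and are no test of enrichment. No motif overlapped another in these 5 windows. A promoter window was matched for 9 of the 12 higher genes and for 8 of the 12 lower genes named below. TTGCNNAA was in 4 of the 9 (Lcn2, S100a9, Saa3 and Serpina3f) and in 7.78% of the 10642 windows matched for tested genes. GAAANNGAA was in 4 of the 9 (Chil3, Cxcl10, Saa3 and Serpina3f) and in 6.47% of all windows, and TATAAA in 3 of the 9 (Il1b, S100a8 and Serpina3f) and in 7.22%. The TATAAA of Il1b and S100a8 began 31 and 30 bases before the start site. That of Serpina3f was on the other strand and began 186 bases before it. GGGNNTTTC was in 2 of the 9 (Chil3 and S100a9) and in 3.90% of all, and it was in 1 of the 8 windows of lower genes, that of Kif20b. The other 3 motifs were in 0 of these 8. A match describes letters and not a bound site. Other forms of these sites were not searched, so a stretch in lower case, as in the Cxcl10 window, may still hold one.

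Calprotectin genes headed these 12 by p. S100a9 was at 0.509 and 0.628 CPM in PC 1 and PC 2 and at 1425 and 1031 CPM in ExDSS 1 and ExDSS 2 (log2 fold change 11.05, SE 2.02, edgeR adjusted p = 0.177). Its neighbour S100a8, on chromosome 3 from 90669071 to 90670034, was at 0.291 and 0.628 CPM in PC and at 1169 and 559 CPM in ExDSS (10.84, SE 2.02, edgeR adjusted p = 0.177). The groups lay far apart in both genes and the ExDSS libraries differed by less than the gap. Of 30 neutrophil genes, 24 were tested, 19 were higher in both ExDSS libraries and 0 lower in both, 14 were at an unadjusted p under 0.05, and 0 were called. Their median log2 fold change was 5.21, and 5.27 with genes that had no count in a group set at their limit. Summed over the list, levels were 80.3 and 56.3 CPM in PC 1 and PC 2, 3871 and 2831 CPM in ExDSS 1 and ExDSS 2, and 2970 and 2683 CPM in NC 1 and NC 2. In bulk tissue more cells of a type and more RNA per cell cannot be told apart.

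Other neutrophil products stood in the same order. Retnlg, a resistin-like granule protein, was at 7.42 and 6.36 CPM in PC and 298 and 233 CPM in ExDSS. Chil3, a chitinase-like protein of neutrophils and macrophages, was at 0 and 0.471 CPM against 139 and 52.8 CPM, and Mmp8, neutrophil collagenase, at 0.0727 and 0.314 CPM against 53.1 and 59.4 CPM. Cxcr2, the receptor that guides neutrophils, was low everywhere, with 0.145 and 0.157 CPM in PC and 1.65 and 8.71 CPM in ExDSS. Wfdc21, an antiprotease-like secreted protein, was at 0.727 and 0.392 CPM against 92.7 and 175 CPM, and was higher in ExDSS 2 than in ExDSS 1. Hdc, which makes histamine, was at 0.364 and 0.0785 CPM against 162 and 27.1 CPM.

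**Figure D1:**
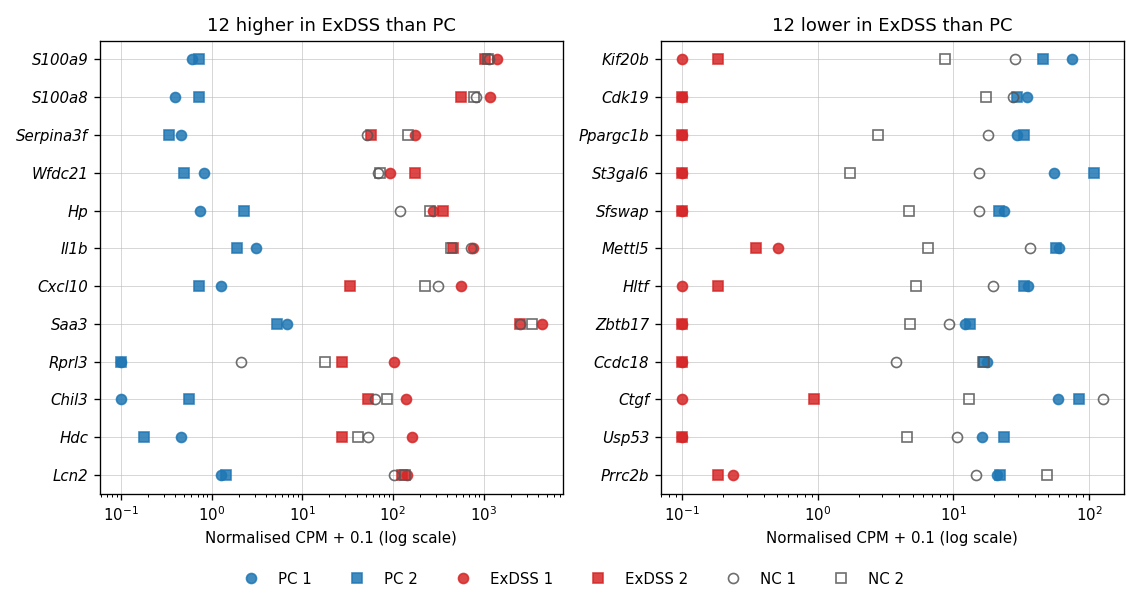
Normalised CPM plus 0.1 (log axis) in each library for the 12 genes highest and the 12 lowest by p in ExDSS against PC; circles are library 1 and squares library 2 of a group, and NC is drawn open. PC 1 and PC 2 lie under 10 CPM in all 12 genes on the left, and ExDSS 1 and ExDSS 2 lie under 1 CPM in all 12 on the right.

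Acute phase genes encode secreted defence and transport proteins that the gut epithelium and liver make in inflammation. Of 17 tested, 13 were higher in both ExDSS libraries and 2 lower in both, 10 higher and 1 lower had an unadjusted p under 0.05, and 0 were called; the median log2 fold change was 5.02. Such pairs of counts below give genes higher in ExDSS first and lower ones second, and list members that did not pass the count filter were not tested. Saa3, a serum amyloid A, was at 6.62 and 5.18 CPM in PC 1 and PC 2 and at 4374 and 2545 CPM in ExDSS 1 and ExDSS 2 (log2 fold change 9.19, SE 2.03, edgeR adjusted p = 0.228). Hp, the haemoglobin scavenger haptoglobin, was at 0.654 and 2.2 CPM against 280.3 and 361 CPM, and Lcn2, which binds bacterial siderophores, at 1.16 and 1.33 CPM against 141 and 126 CPM. Of these 3 genes, the ExDSS libraries were closest to each other in Lcn2. Serpina3f, a protease inhibitor, was at 0.364 and 0.235 CPM against 175 and 57.2 CPM; it belongs to a cluster of close copies whose reads can be shared, so its level is uncertain. Saa1, abundant already in PC at 832 and 1524 CPM, was at 3237 and 11936 CPM in ExDSS (edgeR adjusted p = 0.504).

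Chemokines draw leukocytes into tissue, and those for neutrophils and T cells were described apart from those for monocytes. Of 12 CXC chemokine genes tested, 7 were higher in both ExDSS libraries and 0 lower in both, 6 had an unadjusted p under 0.05 and 0 were called, with a median log2 fold change of 3.33, or 1.99 without ExDSS 2. Cxcl10, an interferon-induced ligand for T cells, was at 1.16 and 0.628 CPM in PC and at 564 and 33.6 CPM in ExDSS, so that ExDSS 1 held most of the difference. Cxcl9, with the same receptor, was at 3.71 and 1.73 CPM against 268 and 51.5 CPM. Cxcl5, a neutrophil attractant, was at 0.727 and 2.51 CPM against 42.1 and 103 CPM. The neutrophil attractants Cxcl1 and Cxcl2 were under 10 CPM in all 4 libraries, and in NC 1 they were at 58.9 and 56.7 CPM.

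CC chemokine genes were divided. Of 18 tested, 6 were higher and 6 lower in both ExDSS libraries, 4 and 2 had an unadjusted p under 0.05, and 0 were called. The fitted median log2 fold change was 2.25, whereas the median of log2 (CPM + 1) ratios to PC was -0.32 in ExDSS 1 and 0.20 in ExDSS 2, and the fitted median was 0.52 without ExDSS 1 and -1.33 without ExDSS 2, the latter above the -2.11 of all genes in that fit. Ccl8, a monocyte and eosinophil attractant, was at 20.9 and 21.4 CPM in PC and 914 and 1051 CPM in ExDSS, and Ccl3 at 0.291 and 0.706 CPM against 99.3 and 28.3 CPM. Ccl4 was split between libraries, with 62 CPM in ExDSS 1 and 0.0837 CPM in ExDSS 2.

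Among 14 inflammatory cytokine genes tested, 6 were higher in both ExDSS libraries and 1 lower in both, 7 and 0 had an unadjusted p under 0.05, and 0 were called. The median log2 fold change was 5.20, and 3.97 with genes that had no count in a group at their limit. It was 1.74 without ExDSS 1 and 3.41 without ExDSS 2, and the median of log2 (CPM + 1) ratios was 2.97 in ExDSS 1 and 0.40 in ExDSS 2. Il1b, which is released by activated macrophages, was at 2.98 and 1.8 CPM in PC and 763 and 463 CPM in ExDSS (log2 fold change 7.99, SE 1.74, edgeR adjusted p = 0.228). Il11, a stromal cytokine of the interleukin 6 family, was at 0.727 and 0.314 CPM against 94.3 and 109 CPM. Tnf was at 0.727 and 0 CPM against 24.8 and 15.5 CPM. Il17a had counts only in ExDSS 1 (7.13 CPM) and Csf3 only in ExDSS 2 (5.36 CPM) among these 4 libraries, and Il6 was under 1 CPM in all 4.

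Macrophage and monocyte genes were mostly higher in ExDSS. Of 27 tested, 17 were higher and 3 lower in both libraries, 11 and 0 had an unadjusted p under 0.05, and 0 were called; the median log2 fold change was 2.51. C1qa, a complement component made by tissue macrophages, was at 37.8 and 58.3 CPM in PC and 1340.4 and 1539.7 CPM in ExDSS (log2 fold change 4.91, SE 1.66, edgeR adjusted p = 0.228). Fcgr4, an activating antibody receptor, was at 4.73 and 2.2 CPM against 181 and 84.3 CPM. The defining receptor Csf1r was at 33.5 and 38.4 CPM against 78 and 97.2 CPM (log2 fold change 1.29, SE 1.31), a smaller difference than that of Adgre1 (6.91 and 8.24 against 57.6 and 105 CPM). Of 11 MHC class II genes, 6 were higher and 1 lower in both ExDSS libraries, 2 and 1 had an unadjusted p under 0.05, and the median was 1.66, or 0.69 without ExDSS 2 and 2.89 without PC 2. Cd74, the invariant chain, was at 63.2 and 88.7 CPM against 1837 and 1222 CPM.

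Interferon-stimulated genes restrict viruses and intracellular bacteria. Of 38 tested, 24 were higher and 3 lower in both ExDSS libraries, 11 and 2 had an unadjusted p under 0.05, and 0 were called, with a median log2 fold change of 2.50. Isg15, a ubiquitin-like modifier, was at 20.7 and 11.2 CPM in PC and 481 and 345 CPM in ExDSS. Gbp5, a guanylate-binding protein, was at 2.98 and 3.06 CPM against 152 and 75.2 CPM. Ido1, which degrades tryptophan, was at 1.02 and 0.471 CPM against 216 and 12.3 CPM, with ExDSS 1 far above ExDSS 2. Of 16 complement genes, 9 were higher and 1 lower in both, 4 and 1 had an unadjusted p under 0.05, and the median was 2.13, or 1.28 without ExDSS 2; C3 was at 36.2 and 41 CPM against 603 and 672 CPM.

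Tissue-degrading and oxidant enzymes followed. Of 22 matrix protease and inhibitor genes, 13 were higher and 5 lower in both ExDSS libraries, 5 and 2 had an unadjusted p under 0.05, and the median was 1.66. Mmp13, a collagenase, was at 3.13 and 2.51 CPM in PC and 90 and 104 CPM in ExDSS, and Timp1, which inhibits such enzymes, at 2.18 and 3.06 CPM against 42.2 and 66.7 CPM. Of 14 oxidant, nitric oxide and itaconate genes, 8 were higher and 1 lower in both, 2 and 1 had an unadjusted p under 0.05, and the median was 1.30, or 0.78 without ExDSS 1. Hmox1, haem oxygenase, was at 0.654 and 1.33 CPM against 177 and 88.8 CPM. Ptgs2, the inducible cyclooxygenase, had no count in either ExDSS library and 1.74 and 0.706 CPM in PC, at least 3.70-fold lower.

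Lymphocyte genes were sparse. Of 16 T and NK cell genes tested, 1 was higher and 6 lower in both ExDSS libraries, and 0 and 4 had an unadjusted p under 0.05. The fitted median was 1.73, while the median of log2 (CPM + 1) ratios was -0.95 in ExDSS 1 and 0.00 in ExDSS 2. Without ExDSS 1 the fitted median was -0.57, without ExDSS 2 -4.97, without PC 1 0.76, and without NC 2, Ex 1 or Ex 2 between 1.09 and 1.10. Cd3e, part of the T cell receptor complex, was at 0.0727 and 0.157 CPM in PC, 0 in ExDSS 1 and 17.1 CPM in ExDSS 2, and Foxp3, the regulator of regulatory T cells, was at 4.73 and 5.26 CPM in PC and 0 in both ExDSS libraries. Of 15 B and plasma cell genes, 2 were higher and 3 lower in both, 0 and 1 had an unadjusted p under 0.05, and the median was 0.59, or -0.07 without PC 1 and -3.16 without ExDSS 2. Of 11 mast cell and eosinophil genes, 8 were higher and 2 lower in both, 2 and 1 had an unadjusted p under 0.05, and the median was 3.78.

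Colonocyte genes for ion and water transport were mostly lower in ExDSS. Of 30 tested, 2 were higher and 21 lower in both libraries, against 45.4% lower among all genes, 0 and 5 had an unadjusted p under 0.05, and the median log2 fold change was -1.32. It was -0.84 without PC 2 and -2.03 without ExDSS 2, where that of all genes was -2.11. Car1, a colonic carbonic anhydrase, was at 3778 and 2664 CPM in PC and 469 and 928 CPM in ExDSS (log2 fold change -2.20, SE 1.78, edgeR adjusted p = 0.613). The water channel Aqp8 was at 600.4 and 621 CPM against 56.6 and 190.0 CPM, and the chloride exchanger Slc26a3 at 799 and 808 CPM against 499.9 and 612 CPM. Cftr, the chloride channel of crypt cells, was at 80.8 and 67.3 CPM in PC, 0 in ExDSS 1 and 0.67 CPM in ExDSS 2. With the term for libraries with under 13000 genes detected, the list median was 1.15 and the Car1 log2 fold change 1.89, the opposite sign, and both lay above the 0.70 of all genes in that fit.

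Butyrate and fatty acid oxidation genes, which serve the main fuel of colonocytes, gave 6 higher and 15 lower (62.5%) in both ExDSS libraries of 24 tested. At an unadjusted p under 0.05, 2 were higher and 4 lower, the latter near the 16.1% of all genes. Their median was -0.82. Slc16a1, the butyrate transporter, was at 143 and 147 CPM in PC and 3.7 and 24.5 CPM in ExDSS. Acat1, a ketone body enzyme, was at 296 and 373 CPM against 5.49 and 48.3 CPM. Pparg, a nuclear receptor that butyrate activates, was at 112 and 70.5 CPM in PC and had no count in either ExDSS library, at least 275-fold lower. NC 2, which also had under 13000 genes detected, had no Pparg count either, while NC 1 was at 57.2 CPM. Distal colon patterning genes were lower in both ExDSS libraries in 6 of 11 (54.55%), with 0 higher, against 45.4% and 18.9% of all genes. At an unadjusted p under 0.05, 2 of the 11 were lower, near the 16.1% of all genes. Their median was -2.67, or -1.86 with genes at their limit, and -4.33 without ExDSS 2, where that of all genes was -2.11. Hoxb13, expressed in the most distal gut, was at 83 and 152 CPM against 5.21 and 18.1 CPM, and in NC 1 and NC 2 at 5.9 and 0 CPM. Proximal colon genes stood much like the distal ones, with 7 of 13 lower (53.85%) and 0 higher in both ExDSS libraries. At an unadjusted p under 0.05, 0 of them were higher and 3 lower.

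Goblet cell genes lay near the shares of all genes. Of 27 tested, 6 were higher (22.2%) and 13 lower (48.2%) in both ExDSS libraries, against 18.9% and 45.4%, and 0 and 3 had an unadjusted p under 0.05. The median was -0.35, or -0.14 without ExDSS 1 and -1.48 without ExDSS 2. Muc2, the gel-forming mucin, was at 2939 and 2039 CPM in PC and 646 and 1492 CPM in ExDSS. Tff3, a trefoil peptide secreted with mucus, was higher in ExDSS, at 1040.2 and 2729.7 CPM against 3324 and 10622 CPM, and Clca1, a mucus-processing protease, was at 2186 and 4747 CPM against 4292 and 22750.3 CPM, with ExDSS 1 between the PC libraries. Creb3l1, which controls secretory genes, was at 139 and 108 CPM against 1.23 and 5.19 CPM (log2 fold change -5.25, SE 1.71, edgeR adjusted p = 0.228). Of 29 junction genes, 6 were higher (20.7%) and 14 lower (48.3%) in both, also near all genes, and 1 and 2 had an unadjusted p under 0.05. Their median was -0.21, or 0.01 without PC 2, -0.47 without ExDSS 1 and -0.88 without ExDSS 2. The scaffold Tjp1 was at 10.1 and 10.4 CPM in PC, 396 CPM in ExDSS 1 and 10.8 CPM in ExDSS 2, while Cdh1, E-cadherin, overlapped between groups, with 630.3 and 575 CPM against 330.5 and 894 CPM.

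Cell cycle genes were lower in both ExDSS libraries in 31 of 44 tested, with 0 higher in both, 0 and 12 at an unadjusted p under 0.05, and 0 called. Their median log2 fold change was -1.67, or -1.20 without PC 1. It was -2.70 without ExDSS 1, where that of all genes was -0.66. Without ExDSS 2 it was -2.16, close to the -2.11 of all genes in that fit. Kif20b, a kinesin of dividing cells on chromosome 19 from 34922358 to 34975731, was at 75.4 and 46.1 CPM in PC, 0 in ExDSS 1 and 0.0837 CPM in ExDSS 2. That is 1 count in ExDSS, and the ratio of PC to ExDSS was 1180 (exact 95% counting interval 211 to 46600, edgeR adjusted p = 0.228). Mki67, which marks dividing cells, was at 102 and 51.9 CPM against 26.9 and 13.5 CPM, and Cdk1, the mitotic kinase, at 159.5 and 94.8 CPM against 7.27 and 9.13 CPM. Top2a overlapped, with 268 and 134 CPM in PC and 224 and 68.7 CPM in ExDSS. In NC 2 Kif20b was at 8.58 CPM and Cdk1 at 2.76 CPM, under the NC 1 values of 28.6 and 29.6 CPM. Of 23 stem cell and Wnt target genes, 4 were higher and 15 lower in both ExDSS libraries, 1 and 9 had an unadjusted p under 0.05, and the median was -2.05, or -1.32 without ExDSS 1 and -3.36 without ExDSS 2. Lgr5, a receptor of crypt base stem cells, was at 3.34 and 5.02 CPM in PC and 0 in both ExDSS libraries, at least 12.6-fold lower. In NC 1 and NC 2 Lgr5 was at 0.597 and 0.0953 CPM. Summed over the list, levels went the other way, with 1361 and 1138 CPM in PC 1 and PC 2 and 4354 and 5844 CPM in ExDSS 1 and ExDSS 2.

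**Figure D2:**
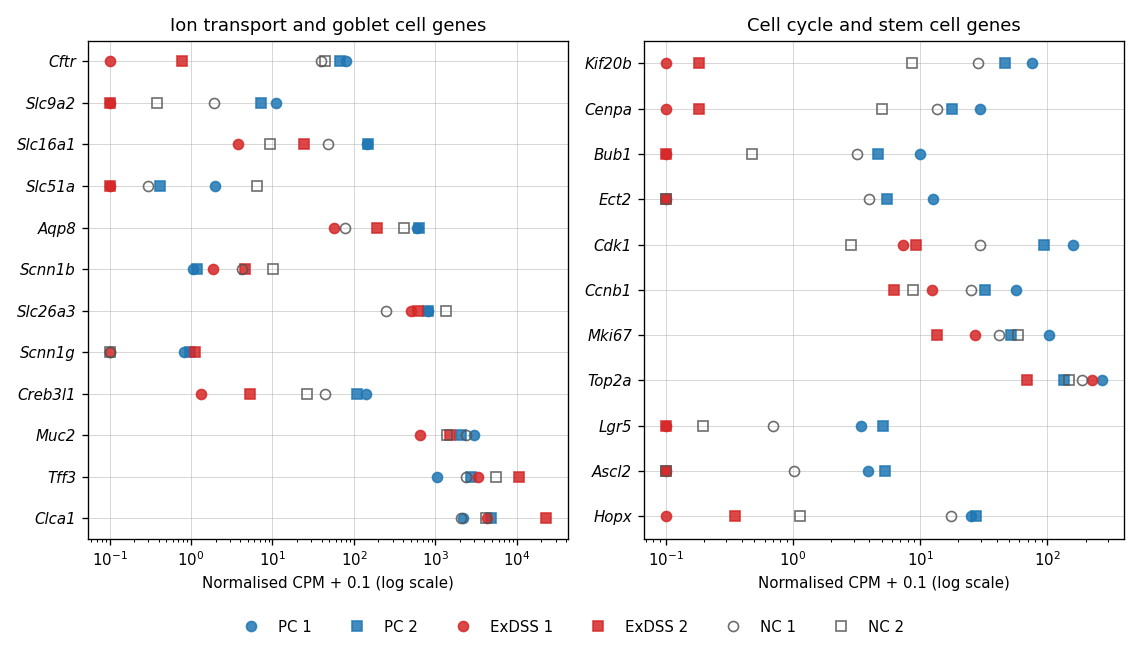
Normalised CPM plus 0.1 (log axis) per library for colonocyte transport and goblet cell genes (left) and cell cycle and stem cell genes (right); circles are library 1, squares library 2, and NC is drawn open. Cftr, Creb3l1, Kif20b and Lgr5 lie under 10 CPM in both ExDSS libraries, while Tff3 is highest in ExDSS 2, at 10622 CPM.

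The other genes lowest in ExDSS by p were Cdk19, Ppargc1b, St3gal6, Sfswap, Mettl5, Hltf, Zbtb17, Ccdc18, Ctgf, Usp53 and Prrc2b. Of these and Kif20b, 7 of 12 had no count in either ExDSS library. St3gal6, a sialyltransferase, was at 55 and 108 CPM in PC, at least 246-fold above ExDSS, and Ppargc1b, a coactivator of mitochondrial genes, at 29.6 and 32.8 CPM, at least 94.2-fold above. Cdk19, a kinase of the mediator complex, was at 35 and 29.1 CPM, at least 96.8-fold above. In NC 2 values were below those of NC 1 in 10 of the 12 genes. Both NC libraries were below both PC libraries in 9 of the 12. These limits cover counting error only and make no allowance for transcripts missing from a library. Of 4937 genes at 20 CPM or more in both PC libraries, 319 had no count in ExDSS 1 (6.46%), 64 in ExDSS 2 (1.30%) and 17 in both, against 0 in NC 1, 37 in NC 2 and 0 in Ex 1. The part of these missing transcripts in the lower gene lists was not tested. With the term for libraries with under 13000 genes detected, which moved the median of all genes to 0.70, medians changed sign to 0.85 for butyrate and fatty acid oxidation, 1.14 for goblet cell, 1.83 for junction, 1.65 for smooth muscle and 1.60 for respiratory chain genes, and the log2 fold changes of Cdk1, Mki67 and Muc2 to 0.45, 0.42 and 1.14. Cdk1 and Mki67 were thus still below the median of all genes in that fit, and the 5 list medians and Muc2 were above it.

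Repair ligands, matrix and muscle showed smaller differences. Of 20 EGF receptor and repair ligand genes, 9 were higher and 2 lower in both ExDSS libraries, 3 and 0 had an unadjusted p under 0.05, and the median was 0.72. Ereg, an EGF receptor ligand, was at 3.42 and 4 CPM in PC and 136 and 208 CPM in ExDSS (log2 fold change 5.53, SE 1.47, edgeR adjusted p = 0.228). Of 30 collagen and matrix genes, 17 were higher and 5 lower in both, 2 and 0 had an unadjusted p under 0.05, and the median was 0.77. Lox, which crosslinks collagen, was at 1.53 and 2.43 CPM against 122 and 84.3 CPM, whereas the collagen genes Col1a1 (80.6 and 116 against 389.6 and 165 CPM) and Col1a2 (304 and 408 against 61 and 91 CPM) lay on opposite sides. Of 26 smooth muscle genes, 9 were higher and 11 lower in both, 1 and 1 had an unadjusted p under 0.05, and the median was -0.38, or -0.15 without ExDSS 1 and -0.84 without ExDSS 2; Myh11, the muscle myosin, overlapped at 623 and 673 against 687 and 519.7 CPM.

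**Figure D3:**
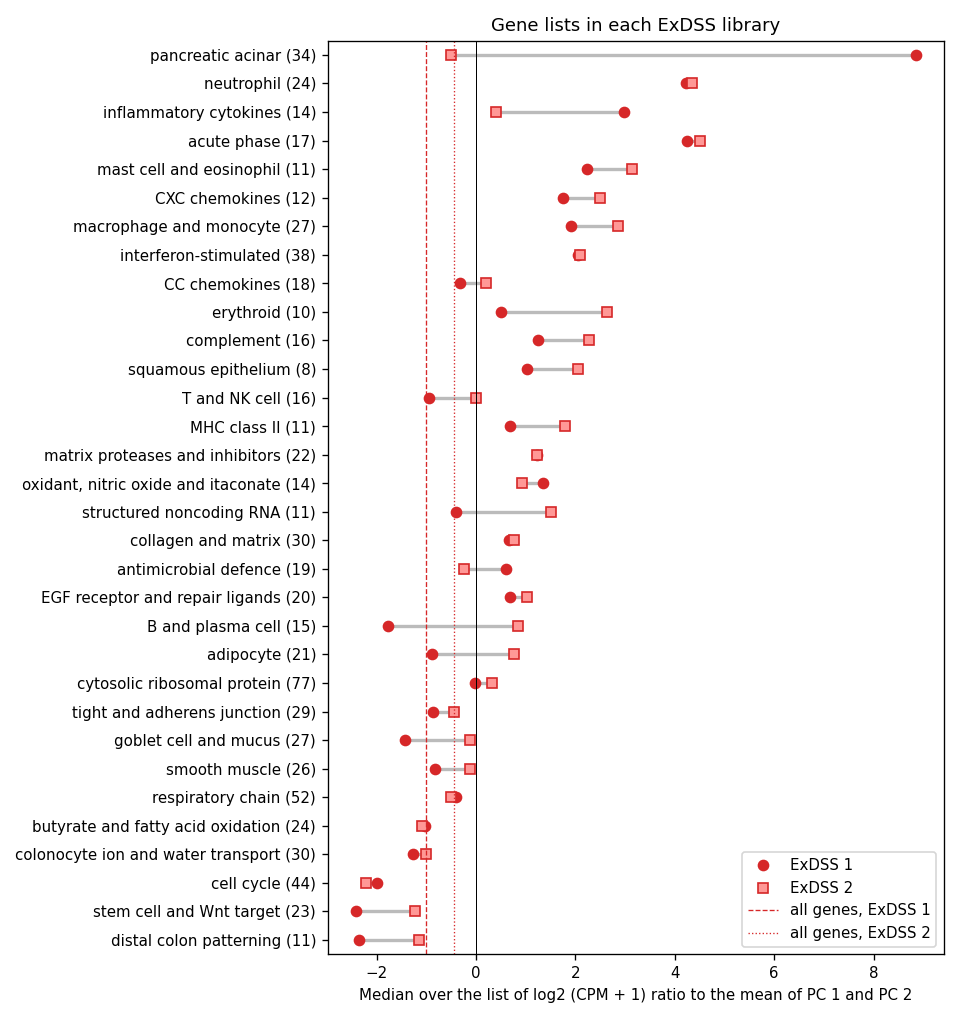
Median over each gene list of the log2 (CPM + 1) ratio of ExDSS 1 (circles) and ExDSS 2 (squares) to the mean of PC 1 and PC 2, with the number of genes tested in parentheses; dashed and dotted lines are the medians of all genes, -1.01 and -0.45. Neutrophil genes were at 4.22 and 4.34 in ExDSS 1 and ExDSS 2, and pancreatic acinar genes at 8.85 and -0.51.

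The ExDSS libraries differed from each other far more than the PC libraries did. Over 14567 genes, 4838 differed by more than 4-fold on the log2 (CPM + 1) scale between ExDSS 1 and ExDSS 2 (33.2%), 1564 of them higher in ExDSS 1, against 23 between PC 1 and PC 2 (0.158%). Digestive enzyme genes of pancreatic acinar cells led. Amy2a5, an amylase, stood at 113304 CPM in ExDSS 1 against 1.17 CPM in ExDSS 2, with 1.38 and 15.8 CPM in PC 1 and PC 2 and 51284 CPM in NC 2. Amylase genes are near-identical copies that share reads, so their single levels are uncertain. Ctrb1, chymotrypsinogen, was at 29345 CPM in ExDSS 1 and 0 in ExDSS 2, and Cpa1, a carboxypeptidase, at 9181 CPM and 0. Reg1 and Reg2, secreted lectins of the pancreas and injured gut, were at 5843 and 4248 CPM in ExDSS 1 and 0 in ExDSS 2. Casp9 was at 24884 CPM in ExDSS 1 and 0 in ExDSS 2; it overlaps the elastase gene Cela2a (26242 CPM and 0) on the other strand of chromosome 4, and reads of both cannot be told apart.

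Of 34 acinar genes tested, 5 were higher and 2 lower in both ExDSS libraries, and 27 and 0 had an unadjusted p under 0.05. The median log2 fold change was 11.83, and 10.16 with genes at their limit. It was -2.94 without ExDSS 1, with 0 genes called by edgeR in that fit. In the other direction, Mptx1, a mucosal pentraxin, was at 4243 and 8106 CPM in the PC libraries, 2.33 CPM in ExDSS 1 and 2463 CPM in ExDSS 2. Cidec and Cd36, which handle fat in adipocytes and absorptive cells, were at 0 and 0.274 CPM in ExDSS 1 and 138 and 122 CPM in ExDSS 2. Of 21 adipocyte genes, 2 were higher and 6 lower in both, 0 and 3 had an unadjusted p under 0.05, and the median was 0.47, or 0.75 without ExDSS 1 and -1.25 without ExDSS 2, where that of all genes was -2.11. Of the squamous keratins, Krt14 and Krt5 were higher in both ExDSS libraries than in PC and highest in ExDSS 1, with Krt14 at 493 and 43.8 CPM and Krt5 at 125 and 70.5 CPM, against at most 2.2 CPM in PC for either, while Krt4 had no count in either ExDSS library. Of 8 squamous genes, 5 were higher and 1 lower in both, 3 and 0 had an unadjusted p under 0.05, and the median was 2.12, or between 3.30 and 5.14 without PC 2 or any 1 of the NC and Ex libraries. Of 10 erythroid genes, 5 were higher and 3 lower in both, 2 and 0 had an unadjusted p under 0.05, and the median was 2.19, or 0.49 without ExDSS 2.

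**Figure D4:**
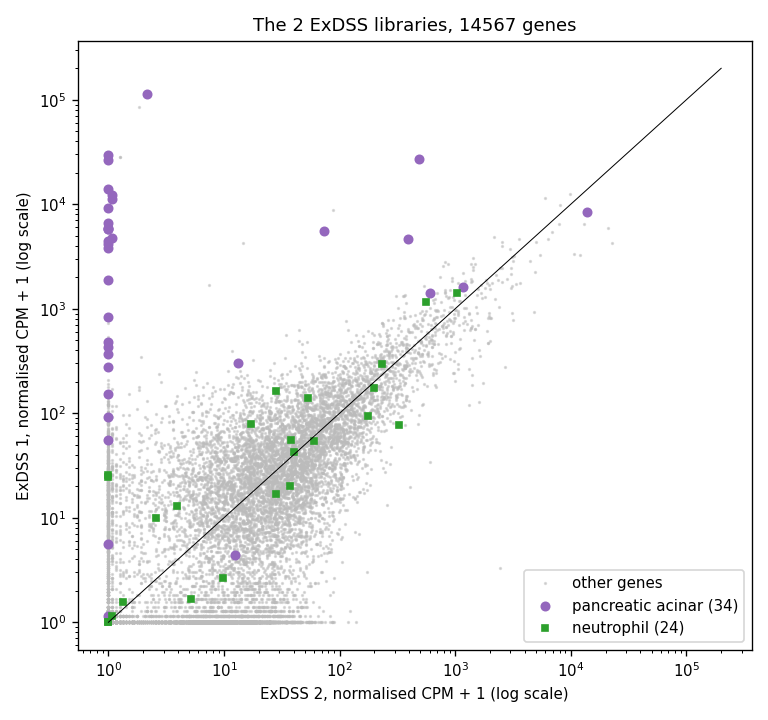
Normalised CPM plus 1 of ExDSS 1 against ExDSS 2 for 14567 genes (log axes, with the line of equal values); acinar genes are purple circles and neutrophil genes green squares. Amy2a5 lies at 113304 CPM in ExDSS 1 against 1.17 CPM in ExDSS 2, and S100a9 near the line at 1425 and 1031 CPM.

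S100a9, Il1b, Saa3 and Cxcl10 were higher in ExDSS than in PC with and without the library that held acinar transcripts. Without ExDSS 1 the log2 fold change was 10.78 for S100a9, 7.57 for Il1b and 8.74 for Saa3, and without ExDSS 2 it was 11.25, 8.29 and 9.52. Cxcl10 moved from 5.19 without ExDSS 1 to 9.26 without ExDSS 2. edgeR called 0 genes in either fit, with 2022 genes at an unadjusted p under 0.05 without ExDSS 1 and 3713 without ExDSS 2.

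Genes of basic metabolism were split as well. Of 77 cytosolic ribosomal protein genes, 32 were higher and 22 lower in both ExDSS libraries, 0 had an unadjusted p under 0.05 in either direction, and the median was 0.25. It was 0.13 without PC 1, 0.52 without PC 2, -0.04 without ExDSS 2 and -0.23 with total counts alone, the last 2 above the medians of all genes in those fits, -2.11 and -0.91. Rps20 was at 1809.6 and 2468 CPM in PC and 9775 and 7997 CPM in ExDSS, while Rpl32 was at 1168 and 1563 CPM against 253 and 422 CPM. NC 2 stood with ExDSS in both, at 19116 and 254 CPM. Of 52 respiratory chain genes, 10 were higher and 32 lower in both, 0 and 2 had an unadjusted p under 0.05, and the median was -0.47, close to that of all genes. Sdhd, a subunit of succinate dehydrogenase, was at 281 and 288 CPM in PC, 1.92 and 0.754 CPM in ExDSS and 0.191 CPM in NC 2. Of 11 structured noncoding RNA genes, 5 were higher and 5 lower in both, 4 and 1 had an unadjusted p under 0.05, and the median was 0.89, or 0.53 without PC 2, 1.50 without ExDSS 1 and -0.41 without ExDSS 2, where that of all genes was -2.11. Rprl3, with no count in PC and 104 and 27.6 CPM in ExDSS 1 and ExDSS 2, was at least 289-fold higher. Rmrp, the RNA of the mitochondrial RNA-processing ribonuclease, was at 0.509 and 0.392 CPM against 456 and 46.5 CPM.

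Of 19 antimicrobial defence genes, 5 were higher and 5 lower in both ExDSS libraries, 4 and 3 had an unadjusted p under 0.05, and the median was 0.75, or -0.85 without ExDSS 1 and 0.42 without ExDSS 2. Reg3b, a bactericidal lectin, was at 713 and 2.75 CPM in PC 1 and PC 2 and 8810.0 and 86.8 CPM in ExDSS 1 and ExDSS 2, so that the groups overlapped. Ang4, an antimicrobial ribonuclease, was at 399 and 648 CPM against 33.2 and 599.6 CPM.

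The last comparison asks whether the difference between exosomes and buffer was the same in libraries labelled with DSS and in those labelled without it. The interaction, (ExDSS minus PC) minus (Ex minus NC), was called in 42 of 14567 genes (0.288%), 38 higher and 4 lower, by edgeR. This test takes in Ex 2, a library of 1163147 counts of which Rn45s held 53.5%, and the calprotectin values of PC and NC given above. Among the genes called, 8 of 24 neutrophil genes, 7 of 17 acute phase genes and 3 of 12 CXC chemokine genes were counted. S100a8 had an interaction log2 fold change of 20.75 (edgeR adjusted p = 0.00414) and S100a9 of 19.07 (0.00414). Il1b, Cxcl10, Serpina3f and Chil3 followed, and Bbc3, Kif20b and Aar2 were lower. Without Ex 2 edgeR called 7 genes higher and 0 lower, so that these 3 were not called (adjusted p = 0.272, 0.105 and 0.267). The count ranged from 0 without NC 1 (3271 at an unadjusted p under 0.05) or without NC 2 (1818) to 1663 without Ex 1, and it was 1 without PC 1, 29 without PC 2, 14 without ExDSS 1 and 23 without ExDSS 2. In the fits without PC 1, NC 1, NC 2, ExDSS 1 or ExDSS 2, 0 genes were called lower.

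**Figure D5:**
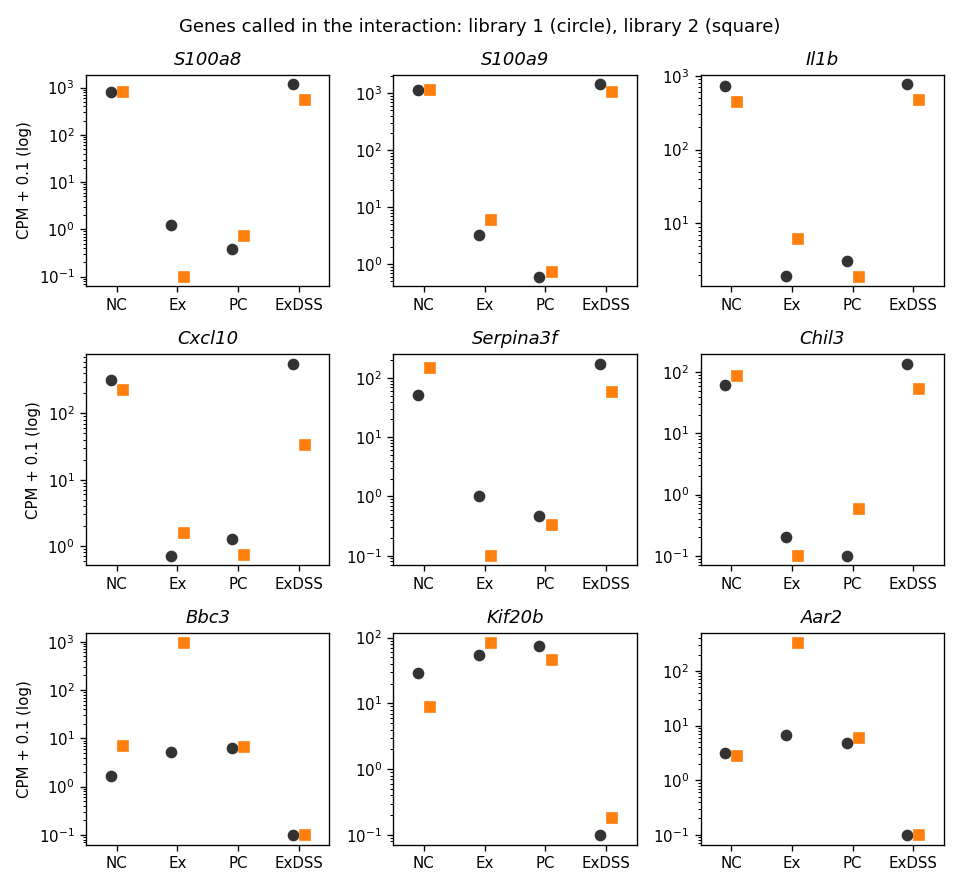
Normalised CPM plus 0.1 (log axes, each panel on its own scale) in the 2 libraries of each group for 9 genes called in the interaction; circles are library 1 and squares library 2. In the upper 6 genes NC and ExDSS are high and Ex and PC low; in Bbc3 and Aar2, Ex 2 stands at 949.9 and 328 CPM, apart from every other library.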

How the data were processed

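Intestinal RNA of 8 libraries was measured with the QuantSeq 3' mRNA kit, per the labels' protocols. The authors deposited raw counts for each gene in 1 column per library. Per the submitters' processing notes, the tools were Bowtie2, bedtools and edgeR and the build mm9, with no versions. How strand was treated in counting is not stated there, so reads of overlapping genes may be shared. Of 10925 genes matched by symbol, chromosome and strand to a RefSeq promoter of GRCm38.p6, 10642 (97.4%) started within 1000 bases of its start site, so coordinates are given as GRCm38.

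Counts were tested with edgeR 4.0.16 in R 4.3.3: TMM scaling, filterByExpr (minimum count 10, total 15), and the robust quasi-likelihood test with 1 mean per group over all 8 libraries. Calls are Benjamini-Hochberg adjusted p under 0.05 over the genes tested. SE is the absolute log2 fold change over the square root of F and is not fitted by the model. A fold against a group with no count is a lower limit against the mean, over its libraries, of the CPM of 3 counts. Group totals of 1 to 3 counts get a ratio with an exact 95% interval. DESeq2 1.42.0 and limma-voom 3.58.1 were alternatives, with other scalings and filters, a fit of the 4 libraries alone, a replicate block and leaving out each library; 2 more were chosen after seeing the data, a term for libraries with under 13000 genes detected and leaving out NC 2 and Ex 2 together. The edgeR script was tested on simulated counts, and the outcome is not given here. The common dispersion of the edgeR fit was 1.173, a wide spread that limits how many true differences the test can call.

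Gene lists, 44 in all, and the comparison itself were chosen with earlier results of these data known. Genes were named by rule: the 12 with the smallest p each way among those with groups that did not overlap and at least 5 CPM, leaving out placeholders and antigen receptor segments; the 10 most abundant in each library; the 10 that differed most between ExDSS 1 and ExDSS 2 with at least 50 CPM; the 6 with the smallest p each way among interaction calls; and in each list its first 4 members and the 4 with the smallest p.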

Additional observations from a re-analysis of the deposited data

Results flagged for a closer look

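By edgeR's interaction term between the groups as labelled, (ExDSS minus PC) minus (Ex minus NC), 42 of the genes tested had an adjusted p under 0.05. As the calprotectin values go against the PC and NC labels, the term cannot be read as a difference with and without DSS. The interaction log2 fold change was 20.75 for S100a8, 19.07 for S100a9, 15.38 for Il1b, 16.68 for Cxcl10, 15.66 for Serpina3f and 18.10 for Chil3. These 6 genes were high in both NC and both ExDSS libraries and low in Ex and PC, and NC and PC go against their labels for calprotectin. It was -15.89 for Bbc3, -11.85 for Kif20b and -14.62 for Aar2. Bbc3 and Aar2 had no count in ExDSS, so their fitted values are no bounds, and Ex 2 alone held 949.9 and 328 CPM of them against 5 and 6.74 CPM in Ex 1. Without Ex 2 edgeR called 7 genes, all higher, and none of these 3: the interaction log2 fold change was -9.56 for Bbc3 (adjusted p = 0.272), -11.58 for Kif20b (0.105) and -10.24 for Aar2 (0.267).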

How the results depend on the processing

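Between ExDSS and PC, edgeR called 0 genes with RLE factors, upper-quartile factors, total counts alone, TMM without pancreatic genes and Rn45s, at least 5 CPM in 2 libraries, no robust option, the 4 libraries alone, the term for libraries with under 13000 genes detected, and without NC 2 and Ex 2 together. It called 132 with no filter on low counts, and DESeq2 called 1526 and limma-voom 1160. Leaving out each library gave 0 to 6. Replicate numbers did not pair the libraries (correlation of deviations 0.029 between PC and ExDSS, -0.149 to 0.0506 between other groups); with the replicate block edgeR called 41 genes, and 161 in the interaction.

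The interaction, called in 42 genes, was called in 67 with RLE factors, 6 with total counts alone, 350 with no filter, 18 with at least 5 CPM in 2 libraries, 1672 by DESeq2 and 327 by limma-voom. By edgeR it was called in 0 with the term for libraries with under 13000 genes detected (1254 at an unadjusted p under 0.05) and in 0 without NC 2 and Ex 2 together (3221), and in 0 to 1663 leaving out each library.

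Log2 fold changes of 45 named genes were recomputed under each alternative. With the term for libraries with under 13000 genes detected, 4 reversed: Car1 to 1.89, Cdk1 to 0.45, Mki67 to 0.42 and Muc2 to 1.14. Of the other values, 843 kept their direction and side of the threshold, and 98 kept their direction and passed the threshold that the reported value missed. Medians of 32 lists were set against the SD of the list's medians in ExDSS 1 and ExDSS 2. Within that SD of the reported median lay 493 values, and 154 moved further without reversing. In 24 values the medians changed sign. With that term they were 0.85 for butyrate and fatty acid oxidation, 1.15 for colonocyte transport, 1.14 for goblet cell, 1.60 for respiratory chain, 1.65 for smooth muscle and 1.83 for junction genes. With limma-voom they were -1.24 for B and plasma cell, -0.22 for CC chemokines, -0.83 for T and NK cell, -0.20 for adipocyte and -0.88 for structured noncoding RNA genes. Ribosomal protein genes were at -0.23 with total counts alone and squamous genes at -0.03 with no filter. Leaving out each library, medians ranged from -3.16 to 0.86 for B and plasma cell, -1.33 to 2.32 for CC chemokine, -4.97 to 1.78 for T and NK cell, -1.25 to 0.75 for adipocyte, -0.85 to 1.02 for antimicrobial, -0.04 to 0.52 for ribosomal protein, -2.94 to 13.53 for acinar, -0.41 to 1.50 for structured noncoding RNA and -0.88 to 0.01 for junction genes. The median of all genes was 0.70 with that term, -1.39 with limma-voom and -0.91 with total counts alone, and it was -2.11 without ExDSS 2. The causes were not tested. Depth limits genes with few counts: 3 counts make 0.218 and 0.235 CPM in PC 1 and PC 2 and 0.411 and 0.251 CPM in ExDSS 1 and ExDSS 2.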

Other observations

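In further gene lists edgeR called 0 members. Enteroendocrine genes were higher in both ExDSS libraries in 5 and lower in 5 of 22, and 2 higher and 5 lower had an unadjusted p under 0.05, against 2.84% and 16.1% of all genes. Sst, somatostatin, was at 13.2 and 12.5 CPM in PC and 171 and 174 CPM in ExDSS, while Pcsk1, a prohormone convertase, had no count in ExDSS and 12.3 and 7.69 CPM in PC. Endothelial genes were higher in 9 and lower in 5 of 20, with 2 and 2 at an unadjusted p under 0.05. Vcam1, an adhesion molecule of inflamed vessels, was at 14.5 and 17.2 CPM against 115 and 338 CPM, and Kdr, a receptor for vascular growth factor, at 11.8 and 11.5 CPM against 0 in both. Enteric neuron and glia genes were higher in 7 and lower in 8 of 24, and 2 and 6 had an unadjusted p under 0.05, with Uchl1 at 9.52 and 12.2 CPM against 56.5 and 54.7 CPM and Elavl4 at 10.3 and 11.5 CPM against 0 in both.

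Genes of cell death and stress lay near the shares of all genes, 18.9% higher and 45.4% lower. Of 22 p53 target and apoptosis genes, 4 were higher (18.2%) and 8 lower (36.4%) in both ExDSS libraries. Casp8, the initiator caspase of death receptors, was at 81.6 and 62.1 CPM in PC, 2658 and 857 CPM in ExDSS and 269 and 2624 CPM in NC. Of 26 unfolded protein response genes, 6 were higher (23.1%) and 11 lower (42.3%); Atf4 was at 189 and 185 CPM against 965 and 794 CPM, and Pdia4, a chaperone of secreted proteins, at 45.4 and 41.2 CPM against 0 and 0.67 CPM. Slc6a19, an amino acid transporter of absorptive cells, had no count in PC and 157 and 10.9 CPM in ExDSS 1 and ExDSS 2, at least 370-fold higher.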
